A study of Mus musculus with 5 samples.

Results

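Il7r, which encodes the alpha chain of the interleukin-7 receptor (CD127), and 7 genes of the BCL2 family were read in CD4 T cells sorted from mouse kidneys after ischemic injury. The 8 genes, Il7r, Bcl2, Bcl2l1, Bcl2l11, Mcl1, Bcl2a1b, Bbc3 and Bax, were found by gene symbol among the 31053 genes of the count matrices, and each symbol matched 1 gene. Their UMIs (unique molecular identifiers, 1 per captured RNA molecule) were summed per library in cells with a Foxp3 UMI, with or without an Il1rl1 UMI, and in cells with a Cd4 UMI and no Foxp3 UMI. All 8 genes passed the low-count filter in every comparison.

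Knockout mice carried Il1rl1fl/fl and Foxp3YFP-Cre (3 libraries) and control mice Il1rl1fl/fl without Cre (2 libraries). Il1rl1 encodes ST2, the interleukin-33 receptor, and Foxp3 marks regulatory T cells, so the deletion is driven in Foxp3-expressing cells. The mice were 10 weeks old, all had ischemia-reperfusion injury on 1 side, and no uninjured kidney is among these samples. The Foxp3YFP-Cre allele was present only in the knockout libraries, so the deletion and the allele itself cannot be told apart. The labels do not say how many animals stand behind a library, so the p-values measure the spread between these libraries. Antibodies to CD127, the protein of Il7r, and to CD25 were in the sort panel, and the labels do not say how either was gated.

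Interleukin-7 signals through CD127, the shared gamma chain, the kinases JAK1 and JAK3 and the factor STAT5, and it keeps resting T cells alive in large part by raising BCL2. BCL2, BCL-XL (Bcl2l1), MCL1 and A1 (Bcl2a1b) hold the effectors BAX and BAK in check, while the BH3-only proteins BIM (Bcl2l11) and PUMA (Bbc3) free them to open the mitochondrial outer membrane. Regulatory T cells of lymphoid organs typically carry little CD127 and depend more on interleukin-2, whereas those of nonlymphoid tissue often carry more of it.

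The libraries held 4580, 10899 and 5580 barcodes in the knockout group and 10146 and 9573 in the control group, the same numbers as the study states, and 38417 of 40778 barcodes were kept. Median depth was 7546, 4433 and 4115.5 UMIs per kept cell in the knockout libraries, against 13534 and 3786 in the control libraries. The 10 pairs of libraries shared 2 to 39 barcodes. In all, 2995 cells were Foxp3+, of which 819 were Il1rl1+ and 2176 Il1rl1-, and 26978 were Foxp3- Cd4+. All 7 T cell markers were detected in every gate of every library, and all 7 regulatory T cell markers were higher in Foxp3+ than in Foxp3- Cd4+ cells by the test used below (median log2 fold change 2.85). Il1rl1 stood at 128, 53.9 and 51.6 CPM (UMIs of the gene per 1000000 UMIs of all genes) in Foxp3+ cells of the knockout libraries, against 74.2 and 54.8 in the control libraries. Counts from the 3′ end do not read the deleted exons unless these lie there, which the sources used here do not give, so this value checks nothing about the deletion.

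The genes lie on several mouse chromosomes (mm10, GENCODE annotation): Il7r at chr15:9505788-9530176 (minus strand), Bcl2 at chr1:106538178-106714274 (minus), Bcl2l1 at chr2:152780668-152831728 (minus) and Bcl2l11 at chr2:128126038-128162547 (plus). Mcl1 lies at chr3:95658788-95663176 (plus), Bcl2a1b at chr9:89199209-89207827 (plus), Bbc3 at chr7:16308393-16318205 (plus) and Bax at chr7:45461697-45466898 (minus). Reads of Bcl2a1b are uncertain, because the last 300 bases of its transcript are 98% identical to those of Bcl2a1a and 98.7% identical to those of Bcl2a1d, and because the gene Gm29094 covers its 3′ end on the same strand. Bcl2 overlaps an antisense gene, D630008O14Rik, and Bax a gene on its own strand, Gm45808, neither at the 3′ end.

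Promoter windows are shown because STAT5 and FOXO factors are known regulators of Il7r, Bcl2 and the BH3-only genes. They run from 250 bases before to 50 after a RefSeq start (GRCm38.p6). Searched on both strands were the STAT motif TTCNNNGAA, which 8.298% of 32851 promoter windows hold, and the FOXO motif GTAAACA, which 3.65% hold. Of 13 windows of the 8 genes, 1 held the STAT motif (Il7r) and 2 the FOXO motif (Bcl2l11 and Bbc3). No window held both. Matches are in capitals (in Bbc3 the FOXO motif is read on the opposite strand, as TGTTTAC), and a window with no match says only that these letters are not in it. The windows shown are Il7r at chr15:9529827-9530126 (minus), Bcl2l11 at chr2:128125788-128126087 (plus), Bbc3 at chr7:16310011-16310310 (plus) and, with neither motif, Bcl2 at chr1:106714241-106714540 (minus), each read along its gene's strand.
Il7r: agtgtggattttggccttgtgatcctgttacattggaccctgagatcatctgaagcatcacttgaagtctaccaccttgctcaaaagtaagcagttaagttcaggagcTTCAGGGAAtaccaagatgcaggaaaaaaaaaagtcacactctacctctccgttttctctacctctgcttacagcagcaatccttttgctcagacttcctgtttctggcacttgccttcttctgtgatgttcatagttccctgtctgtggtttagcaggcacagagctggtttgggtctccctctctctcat
Bcl2l11: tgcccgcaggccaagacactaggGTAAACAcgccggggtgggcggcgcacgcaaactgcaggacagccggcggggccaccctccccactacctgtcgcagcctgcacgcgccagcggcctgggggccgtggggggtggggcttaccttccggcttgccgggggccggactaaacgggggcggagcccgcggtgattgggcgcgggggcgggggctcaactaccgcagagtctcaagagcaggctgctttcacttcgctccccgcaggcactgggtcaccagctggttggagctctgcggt
Bbc3: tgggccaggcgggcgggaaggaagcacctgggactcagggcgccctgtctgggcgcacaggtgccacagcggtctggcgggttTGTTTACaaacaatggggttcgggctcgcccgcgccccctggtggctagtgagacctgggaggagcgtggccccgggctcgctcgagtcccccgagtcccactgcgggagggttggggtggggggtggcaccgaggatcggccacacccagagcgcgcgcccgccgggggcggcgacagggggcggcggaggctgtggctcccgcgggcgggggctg
Bcl2: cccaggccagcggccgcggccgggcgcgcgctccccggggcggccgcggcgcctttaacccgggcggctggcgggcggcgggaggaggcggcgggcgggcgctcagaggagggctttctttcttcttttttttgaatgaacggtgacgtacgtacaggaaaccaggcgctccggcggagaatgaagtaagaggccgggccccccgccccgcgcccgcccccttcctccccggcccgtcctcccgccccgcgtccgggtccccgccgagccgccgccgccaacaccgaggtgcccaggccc

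Levels are given in CPM after summing over the cells of 1 library in 1 gate, so fewer positive cells and less RNA per cell cannot be told apart in them. Il7r had 521.9, 437.5 and 537.1 CPM in Foxp3+ cells of the knockout libraries and 480.1 and 454.5 in those of the control libraries. Among Foxp3- Cd4+ cells its level was 586.7, 383.9 and 448.0 in the knockout libraries and 498.2 and 502.7 in the control libraries. The groups overlapped in both gates, and so did the 2 gates.

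**Figure D1:**
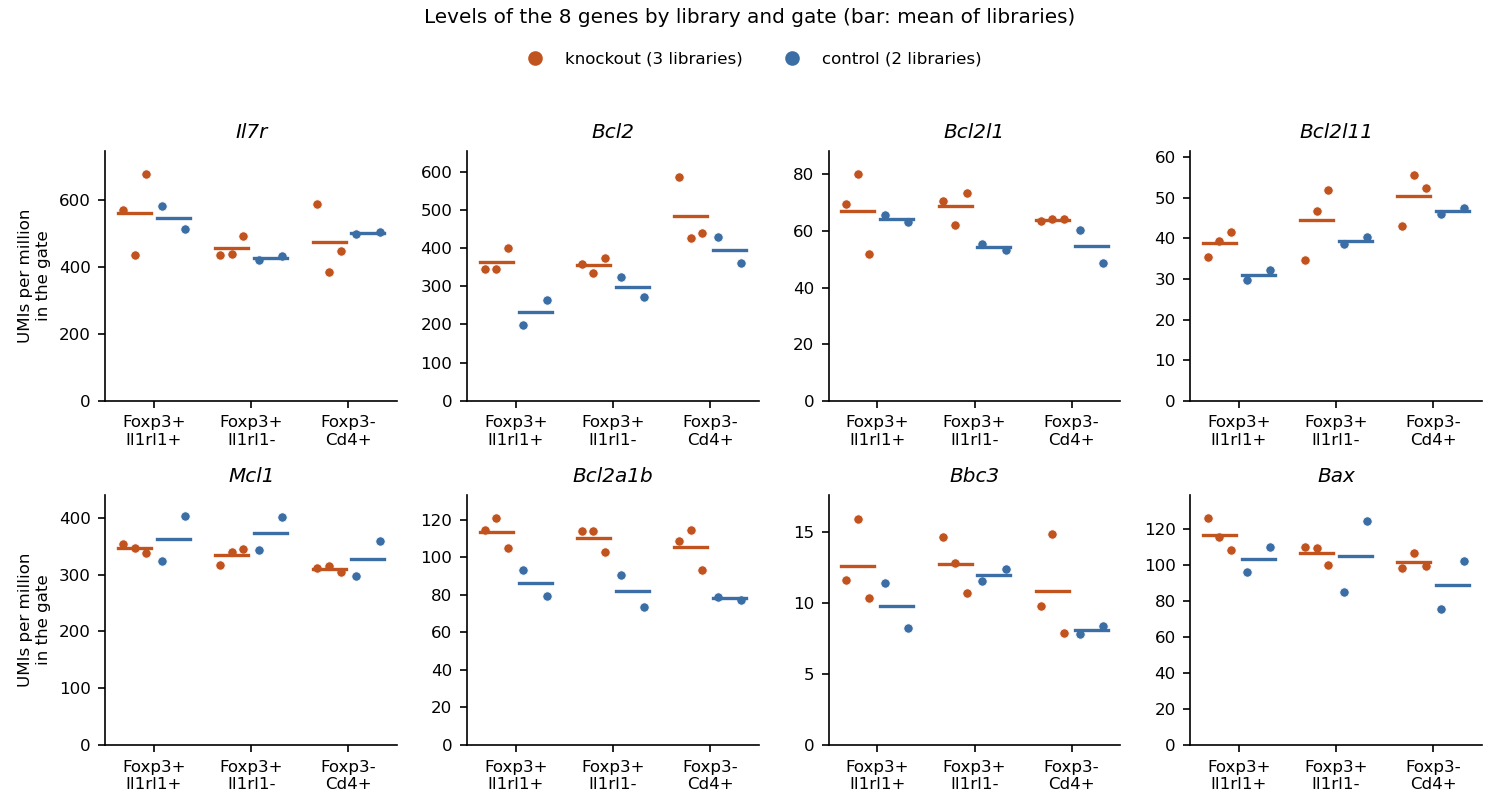
Levels of the 8 genes in CPM (vertical axes, from 0) in 3 gates, with 1 point per library (3 knockout in orange, 2 control in blue) and a bar at the mean of a group. Bcl2 and Bcl2l11 had their highest group means in Foxp3- Cd4+ cells, and Bcl2a1b was higher in every knockout library than in either control library in all 3 gates.

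The share of cells with an Il7r UMI was counted in cells with at least 2000 UMIs. Each was thinned at random to 2000 UMIs, since deeper cells show more genes, and the gates were set again on the thinned counts. Cells below that depth were left out: 335, 1618 and 832 in the knockout libraries and 296 and 1816 in the control libraries. The Il7r share was 52.7%, 51.1% and 54.7% of Foxp3+ cells in the knockout libraries, against 57.6% and 46.8% in the control libraries. Among Foxp3- Cd4+ cells it was 53.2%, 37.8% and 47.1% in the knockout libraries and 47.8% and 45.3% in the control libraries. The share was thus higher in Foxp3+ cells except in knockout library 1, where it was slightly lower. Pooled over libraries, 702 of 1341 Foxp3+ cells (52.3%, exact 95% binomial interval 49.6 to 55.1%) and 7495 of 16711 Foxp3- Cd4+ cells (44.9%, 44.1 to 45.6%) had an Il7r UMI. A gate of B cells, unlike the others, was set on raw counts (Cd79a and Ms4a1 UMIs, no Foxp3, Cd4 or Cd3e UMI). Mature B cells largely lack this receptor, and 8 of 61 cells of that gate had an Il7r UMI after thinning (13.1%, 5.84 to 24.2%). The pooled shares in the Foxp3+ and Foxp3- Cd4+ gates stood above that background. By library the B cell gate held only 2 to 27 thinned cells. In control library 2 it had 5 of 18 (27.8%, 9.69 to 53.5%), an interval that covers that library's shares in the Foxp3+ and Foxp3- Cd4+ gates. Before thinning, the shares in Foxp3+ cells were 82.5%, 72.2% and 78.3% in the knockout libraries and 85.1% and 69.5% in the control libraries, at median depths of 12019, 7202 and 7053 against 16664 and 5429 UMIs. Before thinning the B cell gate held at most 29 cells in a library, at median depths of 2987 to 9612 UMIs. The intervals cover counting error only.

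The first comparison asked how the 8 genes stand in Foxp3+ cells relative to Foxp3- Cd4+ cells of the same library. This gate also follows depth. The median was 12019, 7202, 7053, 16664 and 5429 UMIs in Foxp3+ cells (3 knockout libraries, then 2 control libraries). In Foxp3- Cd4+ cells it was 8143.5, 4888, 4671, 14355 and 4562. Differences were called for 3 genes: Bcl2 and Bcl2l11 were lower and Mcl1 higher in Foxp3+ cells, and Il7r was not called different. Bcl2 had 348.7, 338.5 and 380.3 CPM in Foxp3+ cells of the knockout libraries and 278.0 and 270.5 in those of the control libraries, against 586.6, 426.8, 438.8, 428.7 and 359.8 in Foxp3- Cd4+ cells of the same libraries in that order. It was lower in 5 of 5 libraries, with a log2 fold change of -0.52 (SE 0.07, edgeR quasi-likelihood test with library as a block, adjusted p = 4.37e-04).

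Bcl2l11, which encodes the BH3-only protein BIM, had 35.2, 44.2 and 49.3 CPM in Foxp3+ cells of the knockout libraries and 35.3 and 38.1 in those of the control libraries. The matching Foxp3- Cd4+ cells had 43.1, 55.7 and 52.4 and then 46.1 and 47.5. It was lower in 5 of 5 libraries (log2 fold change -0.35, SE 0.05, adjusted p = 0.00101), so a gene that holds death in check and one that promotes it were both lower in Foxp3+ cells. Mcl1 was higher in 5 of 5 libraries by a small amount (log2 fold change 0.10, SE 0.03, adjusted p = 0.0404), and this call was lost when any 1 library was left out (adjusted p 0.0776 to 0.143). In all, 9 of 15 alternatives lost the Mcl1 call.

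The other members were not called. The log2 fold changes of Foxp3+ over Foxp3- Cd4+ cells were -0.04 for Il7r (SE 0.06, adjusted p = 0.752), 0.04 for Bcl2l1 (SE 0.04, adjusted p = 0.853) and 0.04 for Bcl2a1b (SE 0.05, adjusted p = 0.611). They were 0.28 for Bbc3 (SE 0.11, adjusted p = 0.112) and 0.13 for Bax, the pore-forming effector (SE 0.04, adjusted p = 0.0698). Bbc3 passed without knockout library 2 (0.40, adjusted p = 0.0265) and Bax without knockout library 3 (0.15, adjusted p = 0.0388). Bax also passed in control libraries only (0.18, adjusted p = 0.0264), in T cell gates, defined below (0.18, adjusted p = 0.0396), and with 2 or more Foxp3 UMIs (0.14, adjusted p = 0.0468), and it was -0.06 when cells were gated after thinning. In all, 3 of 8 members were called, against 19.9% of the 13949 genes tested; 1 was higher, against 11.6% of genes, and 2 were lower, against 8.25%. Markers of macrophages moved with this comparison: 5 of 9 were called higher in Foxp3+ cells, none was at 0, and the median log2 fold change was 0.31. Called higher were also 2 of 5 dendritic cell markers (median 0.39), 1 of 2 CD8 T cell markers (median 0.51) and 1 of 5 B cell markers (median -0.36), and 4 of 7 T cell markers were called lower (median -0.11). The part of these lists in the values was not tested. In cells that also had a CD3 UMI and none of 7 myeloid, B cell or tubule genes, called T cell gates below, Bcl2 was lower by a larger amount (-0.70) and so was Bcl2l11 (-0.46).

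**Figure D2:**
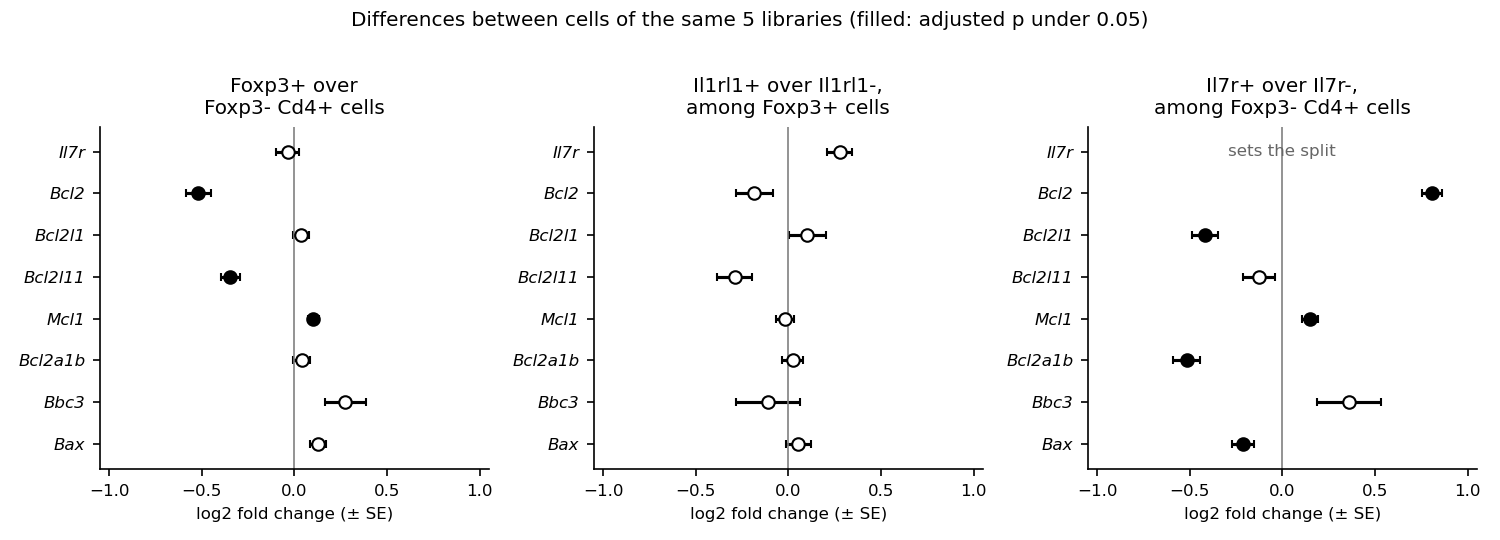
Log2 fold changes (horizontal axes, bars ± SE) of the 8 genes between cells of the same 5 libraries, in 3 panels from left to right: Foxp3+ over Foxp3- Cd4+, Il1rl1+ over Il1rl1- among Foxp3+, and Il7r+ over Il7r- among Foxp3- Cd4+ cells. Filled points passed the threshold (adjusted p under 0.05): Bcl2, Bcl2l11 and Mcl1 in the first panel, none in the second, and Bcl2, Bcl2l1, Mcl1, Bcl2a1b and Bax in the third.

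Around these genes, both of the other BCL2 family members called of 9 tested were higher in Foxp3+ cells: Bad, a BH3-only gene (log2 fold change 0.38, SE 0.06), and Bid, which links death receptors to mitochondria (0.49, SE 0.09). Of 13 tested genes of interleukin-7 receptor signalling, 7 were higher and 1 was lower. Pim1, a kinase gene induced by STAT5, was higher by 1.27 (SE 0.08), Stat5b by 0.38 (SE 0.04) and Crlf2, the partner of CD127 in the receptor for the cytokine TSLP, by 0.31 (SE 0.05), while Pim2 was lower (-0.44, SE 0.10). Of 6 other cytokine receptors 3 were higher, with Il2ra, the CD25 gene, at 2.68 (SE 0.24), Il9r at 0.52 (SE 0.10) and Il4ra at 0.31 (SE 0.06).

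Genes linked to FOXO factors and to naive or memory T cells went both ways, with 2 higher (among them Foxo1 at 0.22) and 2 lower (Tcf7 at -0.67 and Ccr7 at -0.55) of 11. Among 17 genes of caspases, the apoptosome and death receptors, 5 were higher and 1 was lower. The lower one, Fasl, the ligand of the death receptor Fas, fell by 1.01 (SE 0.07), and Fas itself (0.48), Birc2 (0.32), which encodes an inhibitor of apoptosis, and Htra2 (0.39) were higher. Of 13 p53 targets 2 were higher, Sesn1 (0.54) and Trp53inp1 (0.21), and 3 were lower, among them Btg2 (-0.24) and Trp53 (-0.12). Of 10 NF-kB factors and targets 5 were higher, with Bcl3 at 0.57 and Nfkbia at 0.29, and Nfkb1 and Tnfaip3 at 0.20 each. The medians of these 7 lists lay between -0.06 and 0.29, beside -0.00 over all genes.

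Within Foxp3+ cells, the next comparison set cells with an Il1rl1 UMI against cells without one, a gate that also follows depth: the median was 16319, 11318, 8434, 19320.5 and 7406.5 UMIs in Il1rl1+ cells against 9022, 5978, 6236.5, 15572 and 4985 in Il1rl1- cells (3 knockout libraries, then 2 control libraries). None of the 8 members was called, while 138 of 11216 genes were (1.23%); 2 members, Il7r and Bcl2l11, had an unadjusted p under 0.05, and DESeq2 called Il7r. Il7r had 569.2, 436.7 and 676.2 CPM in Il1rl1+ cells of the knockout libraries and 580.7 and 512.1 in those of the control libraries. The Il1rl1- cells had 435.2, 437.9 and 491.0 in the knockout libraries and 421.3 and 432.9 in the control libraries. The level was thus higher in Il1rl1+ cells in 4 of 5 libraries and nearly equal in knockout library 2.

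The log2 fold change of Il7r was 0.28 (SE 0.07, adjusted p = 0.0850), and it passed without knockout library 2 (0.36, adjusted p = 0.0301), in T cell gates (0.42, adjusted p = 0.00311) and when cells were gated after thinning (0.62, adjusted p = 0.00409). After thinning, 121 of 174 Il1rl1+ cells had an Il7r UMI (69.5%, 62.1 to 76.3%), against 581 of 1167 Il1rl1- cells (49.8%, 46.9 to 52.7%). The share was higher in Il1rl1+ cells in each of the 5 libraries, at 65.8%, 67.6%, 68.8%, 72.7% and 71.4% against 48.1%, 49.2%, 52.99%, 54.8% and 44.5% (3 knockout libraries, then 2 control libraries). These rest on 16 to 55 Il1rl1+ cells per library. Thinned to 1000 UMIs instead, with 9 to 27 such cells, the shares were 46.7%, 57.1%, 77.8%, 70.4% and 36.8%. The Il1rl1- cells then had 36.7%, 37.4%, 41.2%, 32.3% and 42.2%, so the order was reversed in control library 2. Cells outside the gates, with neither a Foxp3 nor a Cd4 UMI, are not compared here.

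**Figure D3:**
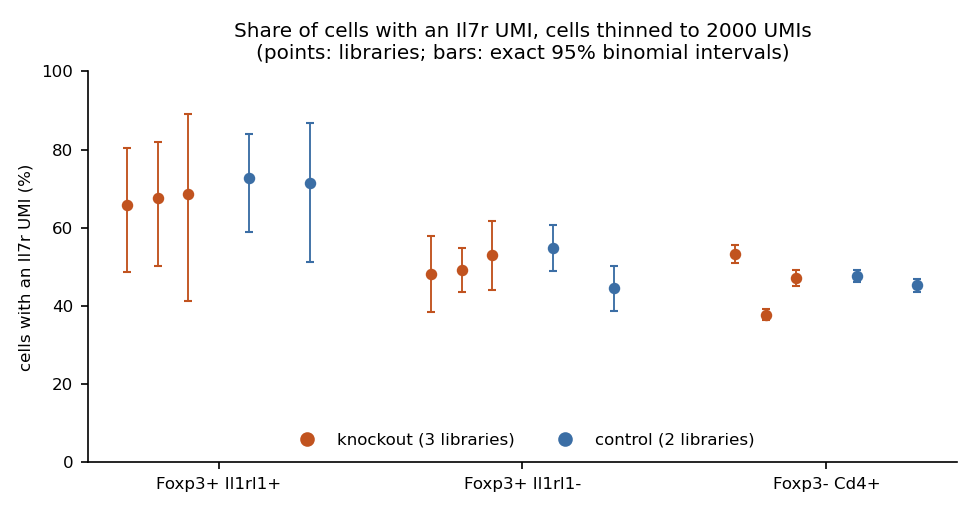
Share of cells with an Il7r UMI after thinning to 2000 UMIs (vertical axis, percent), by gate and library, with exact 95% binomial intervals. In Il1rl1+ cells the points lie between 65.8% and 72.7%, and in Il1rl1- cells between 44.5% and 54.8%.

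Bcl2 had a log2 fold change of -0.18 in Il1rl1+ over Il1rl1- cells (SE 0.10, adjusted p = 0.551); the value was -0.50 in T cell gates, where it passed (adjusted p = 0.0386). Bcl2l11 had a log2 fold change of -0.29 (SE 0.09, adjusted p = 0.205). The remaining 5 members lay between -0.11 (Bbc3) and 0.10 (Bcl2l1). In the lists, Il9r was higher in Il1rl1+ cells (0.77, SE 0.14), and Socs2, a feedback inhibitor of STAT5 signalling (-0.39, SE 0.08), Ccr7 (-0.67, SE 0.13), Foxo1 (-0.25, SE 0.05) and Tcf7 (-0.35, SE 0.07) were lower. No other BCL2 family gene of 7 tested, no caspase or death receptor gene of 17, no p53 target of 12 and no NF-kB gene of 10 was called.

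The study's own contrast set knockout against control libraries. None of the 8 members was called in any gate. In Foxp3+ cells edgeR called 0 of 11519 genes (0%), with 752 at an unadjusted p under 0.05, 3 of them members (Bcl2, Bcl2l1 and Bcl2a1b), and DESeq2 called 51 genes and no member. In Foxp3+ Il1rl1+ cells 1 of 10805 genes was called (0.00925%; 667 at an unadjusted p under 0.05, DESeq2 20), in Il1rl1- cells 0 of 10868 (0%; 648 at an unadjusted p under 0.05, DESeq2 12) and in Foxp3- Cd4+ cells 0 of 13959 (0%; 685, DESeq2 58). These counts moved with single libraries: without control library 2 they were 33 in Foxp3+ and 140 in Foxp3+ Il1rl1+ cells, without control library 1 they were 1 and 20, and without knockout library 1 they were 8 in Foxp3+ and 18 in Il1rl1- cells. The 4 gates share their libraries, so their values are given side by side. The Il1rl1+ and Il1rl1- gates are set on RNA of the gene that the knockout deletes. Whether their cells are alike in both groups was not tested.

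Il7r had overlapping levels in the groups in Foxp3+ cells, with a log2 fold change of 0.06 (SE 0.12, adjusted p = 0.987). Its fold changes were -0.00 in Il1rl1+ cells (SE 0.18), 0.05 in Il1rl1- cells (SE 0.11) and -0.12 in Foxp3- Cd4+ cells (SE 0.18). The thinned share of Il1rl1+ cells with an Il7r UMI was 67.4 ± 1.49% in knockout libraries and 72.1 ± 0.92% in control libraries (SD, n = 3 and 2; two-sided exact permutation p = 0.2, the smallest that 3 against 2 libraries allow); the levels overlapped, and no order is read from this share. In the other 3 gates the thinned shares overlapped between the groups.

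Bcl2 showed the widest gap between the groups among the 8 genes, in Foxp3+ Il1rl1+ cells, a gate set on RNA of the deleted gene. It had 343.9, 345.7 and 399.8 CPM there in knockout libraries, against 199.0 and 265.1 in control libraries, and the groups did not overlap. The log2 fold change was 0.63 (SE 0.15, unadjusted p = 0.00214, adjusted p = 0.436). It passed with no filter on low counts (0.63, adjusted p = 0.00145), in a fit that called 312 genes where the main fit called 1. The value was 0.82 without control library 2 and 0.43 without control library 1, with 1 control library left in each fit. Macrophage and monocyte markers summed to 1512 to 2147 CPM in this gate of the knockout libraries, against 581 to 1758 in that of the control libraries. The 7 regulatory T cell markers summed to 1912 to 2295 CPM there in knockout libraries, against 2433 to 3346 in control libraries, with no overlap; 1 of 7 had a positive log2 fold change (median -0.46), none was called, and their part in the Bcl2 gap was not tested. In T cell gates, where cells with a UMI of several of these markers are left out, the gap was 0.60 (263.2, 254.9 and 312.1 in knockout libraries, against 173.5 and 179.8 in control libraries). When cells were gated after thinning it was -0.01, with 2 to 18 Bcl2 UMIs left per library. The share of these thinned cells with a Bcl2 UMI was lower in knockout libraries, at 16.7 ± 6.65% against 26.9 ± 12.4% (SD, n = 3 and 2). The groups overlapped (two-sided exact permutation p = 0.4).

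In the whole Foxp3+ gate Bcl2 had the levels given above, with no overlap between the groups and a log2 fold change of 0.34 (SE 0.10, adjusted p = 0.563). In T cell gates that value was 0.09, at 311.4, 261.0 and 319.5 CPM in knockout libraries and 284.6 and 260.3 in control libraries, where the groups overlapped. The fold change was 0.21 in Il1rl1- cells (SE 0.12; -0.03 in T cell gates) and 0.25 in Foxp3- Cd4+ cells (SE 0.17). In that last gate knockout library 1 was highest at 586.6 CPM, and the other libraries overlapped.

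Bcl2a1b, which encodes A1, a short-lived inhibitor of death induced by NF-kB, was higher in each knockout library than in each control library in all 4 gates, without passing the test. It had 114.5, 116.2 and 103.2 CPM in Foxp3+ cells of the knockout libraries, against 91.6 and 75.3 in the control libraries (log2 fold change 0.37, SE 0.11, adjusted p = 0.576). In Foxp3- Cd4+ cells it had 108.8, 114.8 and 93.0 in the knockout libraries, against 78.9 and 77.5 in the control libraries (0.39, SE 0.11, adjusted p = 0.994). Myeloid cells express Bcl2a1 genes too, and the summed level of 9 macrophage and monocyte markers in Foxp3+ cells was 1365 to 2147 CPM in knockout libraries, against 611 to 1280 in control libraries. All 9 were detected in every library and higher on average in knockout cells (median log2 fold change 0.95, none called). Both CD8 T cell markers summed to 17.9 to 33.8 CPM in Foxp3+ cells of the knockout libraries, against 34.4 to 71.0 in those of the control libraries; the part of either list in these values was not tested. In T cell gates the fold change of Bcl2a1b was 0.01 in Foxp3+ cells and 0.34 in Foxp3- Cd4+ cells.

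Bcl2l1, the gene of BCL-XL, had 69.9, 68.3 and 67.9 CPM in Foxp3+ cells of the knockout libraries, against 59.1 and 55.9 in the control libraries. The groups did not overlap, and the log2 fold change was 0.22 (SE 0.09, adjusted p = 0.753). In T cell gates they overlapped, at 79.2, 59.9 and 66.7 CPM in knockout libraries against 61.0 and 58.5 in control libraries. After thinning to 2000 UMIs, 13.2 ± 1.66% of Foxp3+ cells had a Bcl2l1 UMI in knockout libraries and 9.83 ± 0.716% in control libraries (SD, n = 3 and 2; two-sided exact permutation p = 0.2). For Bcl2a1b these shares were 13.8 ± 1.55% in knockout libraries and 9.50 ± 0.543% in control libraries (SD, n = 3 and 2; two-sided exact permutation p = 0.2). Thinned to 1000 UMIs instead, the Bcl2l1 shares were 3.19%, 4.23% and 5.41% in knockout libraries and 5.16% and 3.98% in control libraries. Those of Bcl2a1b were 4.26%, 5.77% and 5.41% in knockout libraries and 5.63% and 5.98% in control libraries. At this depth the groups overlapped for both genes. Mcl1, essential for regulatory T cell survival in mice, had 341.4, 342.1 and 343.3 CPM in the knockout libraries and 335.9 and 402.3 in the control libraries (log2 fold change -0.14, SE 0.11, adjusted p = 0.938). The 3 knockout values were nearly equal, and the control libraries lay on both sides of them.

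Of the genes that promote death, Bcl2l11 had a log2 fold change of 0.19 in Foxp3+ cells (SE 0.15), and the groups overlapped. In Il1rl1+ cells it had 35.4, 39.4 and 41.5 CPM in the knockout libraries, against 29.6 and 32.3 in the control libraries (0.29, SE 0.17, adjusted p = 0.911). Bbc3, the gene of PUMA and a target of p53, was the most sparsely counted member, with 9 to 76 UMIs per library in Il1rl1+ cells. Its level in Foxp3+ cells was 12.7, 13.8 and 10.6 in the knockout libraries and 11.5 and 11.3 in the control libraries (0.10, SE 0.19). Bax had 120.7, 111.5 and 102.3 in the knockout libraries and 89.4 and 120.9 in the control libraries (0.06, SE 0.14), which overlapped.

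**Figure D4:**
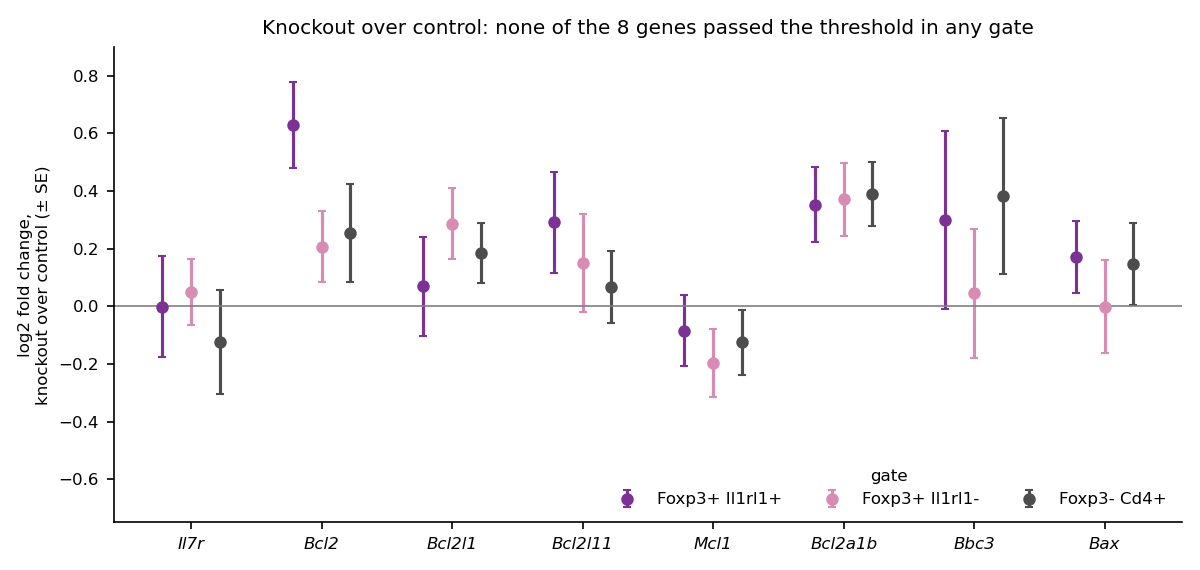
Log2 fold change of knockout over control libraries (vertical axis, bars ± SE, 3 against 2 libraries) for the 8 genes in 3 gates. None passed the threshold; the farthest from 0 was Bcl2 in Foxp3+ Il1rl1+ cells at 0.63, and Bcl2a1b lay between 0.35 and 0.39 in the 3 gates.

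Members whose knockout libraries all lay above both control libraries numbered 3 of 8 in Foxp3+ cells (Bcl2, Bcl2l1 and Bcl2a1b), where 14.9% of all genes did so. They numbered 3 in Foxp3+ Il1rl1+ cells (Bcl2, Bcl2l11 and Bcl2a1b; 12.7% of genes), 4 in Foxp3+ Il1rl1- cells (Il7r, Bcl2, Bcl2l1 and Bcl2a1b; 14% of genes) and 2 in Foxp3- Cd4+ cells (Bcl2l1 and Bcl2a1b; 12.4% of genes). No member lay wholly below the control libraries in any of these gates. The median log2 fold change of the 8 members was 0.14, 0.23, 0.10 and 0.17 in these 4 gates, beside medians of all genes between -0.01 and 0.00. In T cell gates Bcl2 and Bcl2l11 kept this order in Il1rl1+ cells, and Bcl2a1b kept it in Foxp3- Cd4+ cells. For the other members named here, among them all those in Foxp3+ and in Il1rl1- cells, the groups overlapped in T cell gates.

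Whether the genotype gap differed between Foxp3+ and Foxp3- Cd4+ cells was tested as an interaction, which called 7 of 13949 genes (0.0502%) and no member; no member had an unadjusted p under 0.05 there. Its log2 value was 0.19 for Il7r (SE 0.11, adjusted p = 0.861), 0.09 for Bcl2 (SE 0.13), 0.04 for Bcl2l1 (SE 0.09), -0.04 for Bcl2a1b (SE 0.09) and -0.33 for Bbc3 (SE 0.20). A positive value means a larger knockout over control ratio in Foxp3+ cells. In Foxp3- Cd4+ cells 7 regulatory T cell markers summed to 429 to 447 CPM in knockout libraries, against 331 to 338 in control libraries. All 7 had positive fold changes there (median 0.33) and none in the interaction (median -0.64). The 5 cycling markers also had positive fold changes in Foxp3- Cd4+ cells (median 0.41), at 783 to 1758 CPM against 796 to 938. No gene of either list was called, and their part in the values was not tested.

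No gene of the 7 lists was called between the groups in any gate. In the list of interleukin-7 receptor signalling, Cish, a feedback inhibitor that STAT5 induces, had 134, 129 and 137 CPM in Foxp3+ cells of the knockout libraries, against 69.2 and 85.9 in the control libraries (log2 fold change 0.76, SE 0.11, adjusted p = 0.315). Its fold changes were 0.82 in Il1rl1+, 0.75 in Il1rl1- and 0.83 in Foxp3- Cd4+ cells, and the groups did not overlap in any gate. Stat5a had -0.50 in Foxp3+ cells (SE 0.13), and Socs2 had 0.66 (SE 0.16) in Il1rl1+ cells.

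In each of the 4 gates, 10 of the 11 genes linked to FOXO factors and naive or memory cells had a negative fold change, with list medians of -0.24, -0.15, -0.28 and -0.39. Lef1 had -0.46 in Foxp3+ cells. Of the cytokine receptors, Il15ra had 0.45 and Il2rb 0.26 in Foxp3+ cells.

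Among other BCL2 family genes, Bcl2a1a, a near copy of Bcl2a1b with reads that cannot be assigned surely, had a fold change of 1.44 in Foxp3+ cells (SE 0.36, adjusted p = 0.468), and Bik, a BH3-only gene, 1.26 in Il1rl1+ cells. Fasl had 0.72 in Foxp3+, 1.09 in Il1rl1+ and 0.54 in Foxp3- Cd4+ cells. Casp6, an executioner caspase, had -0.45, Sesn1 -0.33 and Tnfaip3, a brake on NF-kB, 0.37 in Foxp3+ cells. The NF-kB list had a positive fold change in 9 of 10 genes in Foxp3+ cells and in 10 of 10 in Il1rl1- and in Foxp3- Cd4+ cells, with medians of 0.06, 0.17 and 0.07, and in 4 of 10 in Il1rl1+ cells.

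The last comparison asked how the BCL2 family stood in cells in which Il7r RNA was seen. Foxp3- Cd4+ cells thinned to 2000 UMIs were split into 7495 with an Il7r UMI (Il7r+) and 9216 without one (Il7r-); at this depth many Il7r- cells may carry the RNA unseen. The gate was set on the thinned counts, so it can hold cells whose Foxp3 UMIs were lost in thinning. Bcl2 was much higher in Il7r+ cells and Mcl1 slightly higher, while Bcl2l1, Bcl2a1b and Bax were lower. The inhibitors of death thus went in both directions.

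Bcl2 had 741.8, 638.0 and 592.6 CPM in Il7r+ cells of the knockout libraries and 656.9 and 471.5 in those of the control libraries, against 503.5, 354.7, 419.2, 334.6 and 256.0 in the Il7r- cells of the same libraries in that order. It was higher in 5 of 5 libraries, with a log2 fold change of 0.81 (SE 0.06, adjusted p = 1.53e-10). The gap was 0.77 in cells without a UMI of 5 cycling markers, 0.99 in control libraries alone, and 0.47 among Foxp3+ cells (adjusted p = 0.0261).

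Bcl2a1b had 81.8, 74.0 and 65.3 CPM in Il7r+ cells of the knockout libraries and 59.3 and 48.8 in those of the control libraries, against 105.9, 112.3, 82.4, 82.3 and 93.1 in Il7r- cells. It was lower in 5 of 5 libraries (log2 fold change -0.52, SE 0.07, adjusted p = 1.05e-05). Bcl2l1 had 53.2, 53.01 and 52.2 in Il7r+ cells of the knockout libraries and 49.7 and 42.1 in those of the control libraries, against 76.8, 71.8, 66.1, 78.2 and 52.2 in Il7r- cells. It too was lower in 5 of 5 libraries (-0.42, SE 0.07, adjusted p = 9.74e-05). Among Foxp3+ cells, with far fewer cells, the values were -0.65 and -0.51 and did not pass (adjusted p = 0.168 and 0.362).

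Bax was lower in 5 of 5 libraries by 0.21 (log2 fold change -0.21, SE 0.06, adjusted p = 0.0120), a call lost without control library 2 (-0.20, adjusted p = 0.0529) and without knockout library 2 (-0.18, adjusted p = 0.0725). In all, 5 of 15 alternatives lost the Bax call and 1 more reversed its sign. Mcl1 had 0.15 (SE 0.04, adjusted p = 0.0148) and was higher in 4 of 5 libraries, the exception being knockout library 2. The call for Mcl1 was lost without control library 1 (0.13, adjusted p = 0.0808) and without knockout library 3 (0.13, adjusted p = 0.0685), and in 6 of 15 alternatives in all. Neither BH3-only gene was called: Bcl2l11 had -0.13 (SE 0.09, adjusted p = 0.331) and Bbc3 0.36 (SE 0.17, adjusted p = 0.147). Apart from Il7r, which sets the split, 5 of 7 members were called, against 22.8% of 10903 genes tested; 2 were higher, against 10.6% of genes, and 3 lower, against 12.2%.

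**Figure D5:**
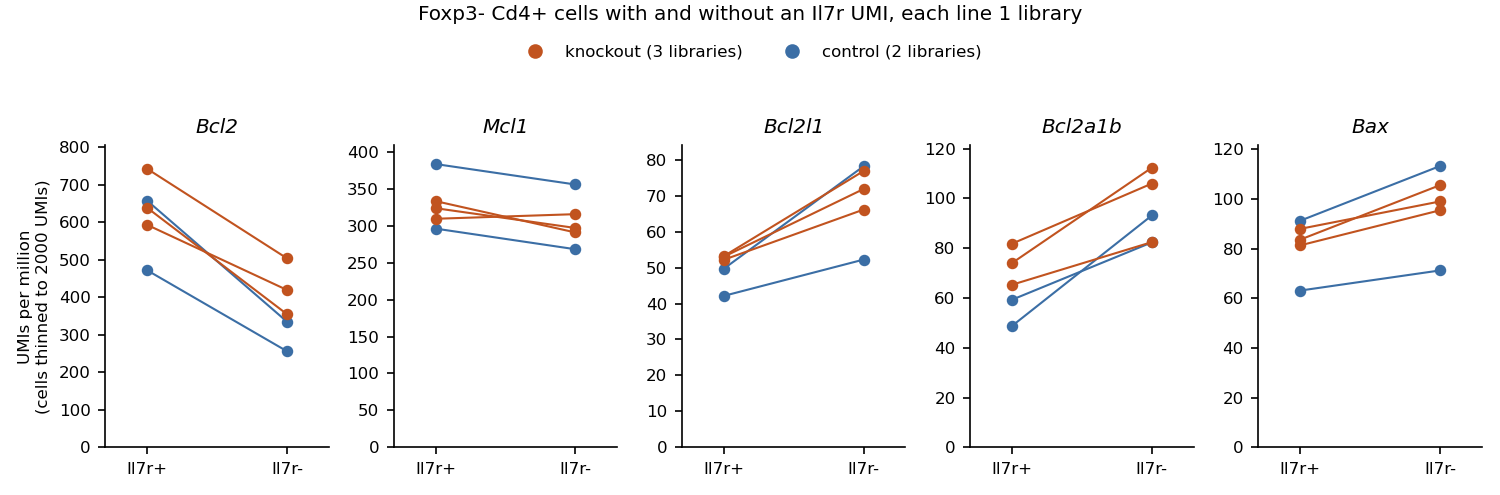
Levels in CPM (vertical axes, from 0) of the 5 called genes in Il7r+ and Il7r- cells among Foxp3- Cd4+ cells thinned to 2000 UMIs, each line 1 library (3 knockout in orange, 2 control in blue). Every line falls from Il7r+ to Il7r- for Bcl2 and climbs for Bcl2l1, Bcl2a1b and Bax, and for Mcl1 4 of 5 lines fall.

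The genes around these members differed between the same cells. Of 11 genes linked to FOXO factors and naive or memory cells, 8 were higher and 2 lower in Il7r+ cells (median 0.97), with Klf2 at 1.17 (SE 0.06), Tcf7 at 0.98 (SE 0.05), S1pr1, which leads T cells out of tissue, at 0.98 (SE 0.06) and Lef1 at 0.97 (SE 0.05). Interleukin-7 receptor signalling had 5 higher and 2 lower of 13, led by the feedback inhibitor Socs3 at 1.12 (SE 0.11), Pim2 at 0.86 (SE 0.12), Pim1 at 0.59 (SE 0.07) and Stat5b at 0.46 (SE 0.06). Il2ra (0.56) and Il4ra (0.39) were higher and Il2rb (-0.17) was lower, of 6 other cytokine receptors.

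Of 7 other BCL2 family genes tested 2 were lower, Bcl2a1d at -0.69 (SE 0.10), another near copy of Bcl2a1b, and Bak1, the second pore-forming effector, at -0.46 (SE 0.11). Among 17 caspase and death receptor genes 1 was higher, Birc3 (0.29), and 6 were lower, including Birc5 (-1.19, SE 0.18), which is also a cycling marker, and Fasl (-0.45). Of 12 p53 targets Sesn1 was higher (0.33) and Cdkn1a (-0.73) and Ccng1 (-0.23) were lower. Of 10 NF-kB genes Tnfaip3 was higher (0.46). All 5 cycling markers were lower in Il7r+ cells (median -1.10), 5 of 7 T cell markers were lower and 1 higher, 5 of 6 tested regulatory T cell markers were higher, and no macrophage marker of 9 was called. Also lower were 1 of 2 CD8 T cell markers (median -0.66), 1 of 2 tested NK cell markers (median -0.67) and 1 of 2 tested dendritic cell markers (median -1.09), and 1 tested endothelial marker was higher (0.52). The part of these lists in the values was not tested, except that of the cycling markers as follows. The fold changes in cells without a cycling UMI were -0.58 for Bcl2a1b, -0.46 for Bcl2l1 and -0.25 for Bax, and all 3 passed there, while Mcl1 did not (0.12, adjusted p = 0.0728).

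For each member the 2 genes whose level followed it most closely over the 15 points of 5 libraries and 3 gates were taken from 6496 genes of at least 20 CPM; the points share libraries and depth, so the values describe likeness only. Pearson's r of log2(level + 1) was 0.81 for Klf6 and 0.80 for Unc50 with Il7r, and 0.92 for Ccdc50 and 0.89 for Pag1 with Bcl2. Bcl2l11 was followed by Dennd2d and Mta2 (0.91 each), Mcl1 by Spen (0.92) and Tars2 (0.90), and Bcl2l1 by Zmpste24 (0.91) and Micu2 (0.82). Bcl2a1b was followed by St6galnac3 (0.95) and Rap1gap2 (0.92), Bbc3 by Ptk2b (0.88) and Gbp3 (0.87), and Bax by Hcls1 and Pold4 (0.91 each). No member of the 8 was eligible in this search.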

How the data were processed

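Single-cell 3′ RNA-seq (10x Genomics Chromium GEM-X) of sorted kidney CD4 T cells gave 5 libraries. The deposited values are unnormalized UMI counts, 1 matrix a library. The submitters' processing notes name Cell Ranger 8.0, mm10 and Seurat 5.1.0, and the file headers Cell Ranger 8.0.0. Low-quality reads, intron reads and cell calling were handled before deposit in ways not given in the sources used here.

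Cells with at least 500 genes and under 10% mitochondrial UMIs were kept. UMIs were summed per library and gate. A gate needed 1 UMI of its gene, in raw counts, or in thinned counts for thinned shares and the Il7r split. The B cell gate was set on raw counts throughout. Sums were tested over all genes with edgeR 4.0.16 in R 4.3.3 (TMM factors, filterByExpr, quasi-likelihood test, Benjamini-Hochberg adjustment over all genes tested, two-sided, threshold 0.05). On simulated counts of Foxp3+ cells the genotype fit recovered 26%, 58%, 88% and 94% of 1.5-fold, 2-fold, 3-fold and 4-fold changes. In Foxp3- Cd4+ cells it recovered 6%, 48%, 70% and 88% of them. The simulated fits also made more false calls than the threshold allows. Knockout was compared with control without a block; gates were compared with library as a block, since both sums come from 1 library. Replicate numbers of the groups share only a number. Shares of cells used Python 3.11.15 and cells thinned to 2000 UMIs (seed 11), with exact Clopper-Pearson intervals. Cells with fewer UMIs than the thinning depth were left out of all thinned counts. Scrublet (scanpy 1.11.5), at its own threshold, called 0 or 1 cell per library and so did not work; removing the 5% highest scores per library was an alternative. DESeq2 1.42.0, other factors, filters and gates, and leaving out each library were further alternatives.

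Named were the 8 members in each comparison, of each of 7 pathway lists (83 genes) the called genes, at most 4 by smallest p, or the 2 with the smallest p where none was called, and the 2 nearest genes per member. Some genes that this rule names are not reported here. In 11 further lists cell type markers were counted. The members and lists were chosen with earlier results of these data known. SE is the absolute log2 fold change over the square root of F. Promoter sequences are from RefSeq.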

Additional observations from a re-analysis of the deposited data

How the results depend on the processing

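After thinning, 174 cells kept both a Foxp3 and an Il1rl1 UMI, and 2 control libraries limit every genotype contrast. Over all alternatives and members, 780 values kept their direction and their side of the threshold, 25 lost a call, 15 gained one and 67 changed sign, most of these from values near 0; the cause was not tested. Bcl2 kept its call in Foxp3+ against Foxp3- Cd4+ cells and in Il7r+ against Il7r- cells under every alternative run, and Bcl2l11 in Foxp3+ against Foxp3- Cd4+ cells under all but the fit without the library block (adjusted p = 0.0777). The gates of at least 2 Foxp3 UMIs and, for the Il7r split, the control libraries alone, the split among Foxp3+ cells and the cells without a cycling UMI were chosen after seeing the data.

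Genes called between knockout and control libraries in Foxp3+, Foxp3+ Il1rl1+, Foxp3+ Il1rl1- and Foxp3- Cd4+ cells (0, 1, 0 and 0 as reported) numbered 51, 20, 12 and 58 by DESeq2 and 452, 312, 339 and 191 with no filter on low counts. In T cell gates they numbered 1 in Foxp3+ and 0 in Il1rl1+ cells, in gates after thinning 1, 0 and 2 in the 3 Foxp3+ gates, and without the 5% highest doublet scores 2 in Il1rl1+ cells. The interaction (7 as reported) called 29 by DESeq2, 297 with no filter, 13 with 2 or more Foxp3 UMIs and 2 in T cell gates. Foxp3+ against Foxp3- Cd4+ cells (2774) gave 1554 after thinning. Il1rl1+ against Il1rl1- cells (138) gave 564 with no filter, 65 with 2 or more Foxp3 UMIs, 35 after thinning and 21 in control libraries only. Il7r+ against Il7r- cells (2482) gave 1179 by DESeq2, 4708 when split in raw counts and 62 among Foxp3+ cells.

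For the comparisons of gates, the fit with no replicate block called 0 genes for the interaction, 868 for Foxp3+, 1 for Il1rl1+ and 287 for Il7r+ cells against their counterparts. For knockout against control, replicate numbers 1 and 2 share only a number; the replicate block called 1 gene in Foxp3- Cd4+ cells and turned Il7r to -0.0011 in Foxp3+ cells and -0.0014 in Il1rl1- cells and Bax to 0.047 in Il1rl1- cells, and it called no member.

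Other changes of sign in knockout over control log2 values were as follows. Il7r in Il1rl1+ cells was 0.031 with 2 or more Foxp3 UMIs, 0.0026 by DESeq2, 0.0012 with RLE factors, 0.10 in T cell gates, 0.17 after thinning and 0.0061 with the strict cell filter. Bax in Il1rl1- cells was 0.00025 with RLE factors, 0.00081 with the strict filter and 0.036 without high doublet scores. Bbc3 in Il1rl1- cells was -0.12 with 2 or more Foxp3 UMIs. In T cell gates Bcl2l11 was -0.011 in Foxp3+ and -0.11 in Il1rl1- cells, Bcl2a1b -0.091 in Il1rl1+ cells and Bcl2 -0.030 in Il1rl1- cells. After thinning Bcl2l11 was -0.080 and Bax -0.037 in Foxp3+ cells, Bcl2 -0.0074 in Il1rl1+ cells and Bcl2l11 -0.37 in Il1rl1- cells.

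In the interaction, Bcl2l1 was -0.029 with 2 or more Foxp3 UMIs. In T cell gates Bcl2 was -0.14, Bcl2l11 -0.11 and Mcl1 0.0086, and after thinning Bcl2l11 was -0.33, Mcl1 0.021 and Bcl2a1b 0.26. For Foxp3+ against Foxp3- Cd4+ cells, Il7r was 0.020 in T cell gates and 0.085 after thinning, Bcl2a1b -0.27 and Bax -0.062 after thinning, and Bcl2l1 -0.00073 with no filter. For Il1rl1+ against Il1rl1- cells, Bcl2a1b was -0.079 with 2 or more Foxp3 UMIs, Bbc3 0.13 in T cell gates, Bax -0.0032 in control libraries only, Mcl1 0.0020 without high doublet scores, and after thinning Bcl2l11 was 0.15, Mcl1 0.0099 and Bax -0.55. For Il7r+ against Il7r- among Foxp3+ cells, Bcl2l11 was 0.0044 and Bax 0.10.

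Leaving out each library gave 0 to 33 calls between knockout and control in Foxp3+ cells, 0 to 140 in Il1rl1+ and 0 to 18 in Il1rl1- cells, 2 to 39 for the interaction and 43 to 146 for Il1rl1+ against Il1rl1- cells, with 43 without knockout library 3. In Foxp3+ cells Il7r then ranged from -0.0011 to 0.13, Bbc3 from -0.0061 to 0.19 and Bax from -0.15 to 0.28. In Il1rl1+ cells Il7r ranged from -0.15 to 0.16, Bcl2l1 from -0.070 to 0.19 and Mcl1 from -0.23 to 0.062. In Il1rl1- cells Il7r ranged from -0.00015 to 0.072, Bbc3 from -0.044 to 0.15 and Bax from -0.27 to 0.28. In Foxp3- Cd4+ cells Il7r ranged from -0.31 to 0.0096, Bcl2l11 from -0.0075 to 0.17, Mcl1 from -0.26 to 0.031 and Bax from -0.061 to 0.39. For the interaction Bcl2 ranged from -0.012 to 0.26, Bcl2l1 from -0.070 to 0.11 and Bcl2a1b from -0.17 to 0.14. For Foxp3+ against Foxp3- Cd4+ cells Il7r ranged from -0.10 to 0.0071 and Bcl2a1b from -0.0083 to 0.066, and for Il1rl1+ against Il1rl1- cells Mcl1 ranged from -0.054 to 0.0071.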
